A study of Mus musculus with 6 samples.

Results

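Notch signalling was described through 10 genes, taken by symbol from the 31055 genes of the count matrix, and all 10 were found there. They are the receptors Notch1, Notch3 and Notch4, the ligands Dll1, Dll4, Jag1 and Jag2, and the target genes Hey1, Hes1 and Nrarp. Another 45 genes of the pathway were followed as a list. The data are single-cell RNA-seq counts of unique molecular identifiers (UMIs) and come from 3 control and 3 Dsp_het libraries of heart cells, all from the C57BL/6 strain at an age of 3 to 6 months. Control mice were Wt1CreERT2:Rosa26mTmG, and Dsp_het mice were Wt1CreERT2:Rosa26mTmG:DspW/F, which the submitters describe as haploinsufficient for desmoplakin, a protein of the junctions between heart muscle cells. Every mouse therefore carried the inducible Cre recombinase driven by Wt1 and the membrane reporter that switches from Tomato to EGFP after recombination. The labels name no inducing agent and do not say whether a library came from 1 animal, so the spread between libraries may be technical in part. Non-myocytes were sorted for EGFP, so the cells are those in which the Wt1-driven Cre had acted, or their descendants, as far as the sort was clean.

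Notch is a receptor that is cut when a ligand on a neighbouring cell pulls on it. The freed intracellular part enters the nucleus, binds the DNA-binding protein RBPJ and switches on targets such as the Hes and Hey repressors and Nrarp, which encodes a feedback inhibitor of the pathway. In vessels, Dll4 with Notch1 and Notch4 is known for arterial identity and for restraining sprouting, and Notch3 for the maintenance of smooth muscle cells and pericytes, together called mural cells.

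Nrarp and Dll4 varied together over the vessel classes and, summed over all endothelial-like cells, were lower in Dsp_het without passing the test. Notch3 is the mural receptor. The 250 bases upstream of the annotated start are shown for these 3 members. All are from RefSeq (GRCm38.p6), written 5′ to 3′ on the strand of the gene. RefSeq entries were matched for 8 of the 10 members. None was matched for the target genes Hes1 and Hey1, so Nrarp was the only target gene whose window was searched. The windows are chr2:25180508-25180757 (plus strand) for Nrarp, with no annotated exon inside, chr2:119325534-119325783 (plus strand) for Dll4, where an exon of Gm14207 overlaps, and chr17:32166891-32167140 (minus strand) for Notch3, with no exon inside. Capitals mark the hexamer CACGTG, an E-box of the kind that basic helix-loop-helix factors can bind.
Nrarp: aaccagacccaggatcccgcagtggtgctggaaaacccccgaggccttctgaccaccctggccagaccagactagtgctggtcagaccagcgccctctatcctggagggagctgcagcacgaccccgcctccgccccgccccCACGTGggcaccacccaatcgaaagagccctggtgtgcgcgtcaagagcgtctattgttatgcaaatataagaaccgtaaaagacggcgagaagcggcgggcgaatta
Dll4: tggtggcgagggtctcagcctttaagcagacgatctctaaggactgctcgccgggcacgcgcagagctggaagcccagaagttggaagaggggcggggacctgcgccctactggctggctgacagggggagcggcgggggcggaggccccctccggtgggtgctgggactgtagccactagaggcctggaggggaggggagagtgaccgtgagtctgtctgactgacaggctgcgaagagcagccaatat
Notch3: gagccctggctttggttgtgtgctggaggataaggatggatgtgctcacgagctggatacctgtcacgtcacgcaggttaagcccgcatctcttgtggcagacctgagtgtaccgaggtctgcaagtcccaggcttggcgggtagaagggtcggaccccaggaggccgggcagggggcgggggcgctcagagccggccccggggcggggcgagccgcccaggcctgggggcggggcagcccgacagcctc
The E-box of Nrarp begins at -108 from the start, and CACGTG, which reads the same on both strands, was held by 6.02% of 32851 RefSeq promoter windows of that length. The core letters of the RBPJ site, TGGGAA or TTCCCA on the other strand, were absent from the windows of all 8 matched members and present in 21.6% of the windows searched. These matches describe letters in a window and not bound sites.

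The cells were checked before the members were read. Desmoplakin (Dsp), the targeted gene, was scarce: in epicardial-like cells, where its mean was highest, it reached 12.0, 19.95 and 17.5 CPM in control (4, 7 and 18 UMIs) and 7.26, 7.25 and 9.44 CPM in Dsp_het (14, 6 and 15 UMIs), and UMI counts do not show whether an allele was recombined. CPM here is a gene's count in the summed cells of a class in 1 library, scaled to the usual CPM total. The libraries held between 7573157 and 17083660 UMIs. Of 13183 distinct barcodes, 1689 occurred in more than 1 library and 530 in all 6. Copies, the occurrences outside the library with most of a barcode's UMIs, were 41.7% of the barcodes in Dsp_het library 2, 48.9% in Dsp_het library 3 and from 17.3% to 25.5% in the other 4 libraries. All results below use 1 library per barcode. Values with copies counted in are given for some results only, and other results can also differ with them. After the cell filter, 12661 cells were kept, between 1066 and 2967 per library, and the median cell of a library held from 3491.5 to 6491.5 UMIs.

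Although the labels call the cells epicardial derived, 9473 of the kept cells were endothelial-like and 600 formed the epicardial-like cluster with Upk3b, Msln and Krt19. Cells were clustered without the 10 members and the other pathway genes, so these genes did not define the clusters, and clusters were named "-like" from marker genes. The arterial-like cluster (1047 cells) was led by Gja4, and the venous-like cluster (476 cells) by Ccl21a. Ccl21a was on the lymphatic marker list and also led a lymphatic-like cluster of 30 cells, which stayed outside the endothelial-like sums. The venous-like cluster was named by 3 venous markers among its 10 leading genes, Vwf, Lrg1 and Vcam1. The 4 capillary-like clusters (5376 cells) had Car4, Kdr, Rbp7 or Hspa1a among their leading genes, and the one with Kdr was named by its marker score, with 1 marker among those 10. Haemoglobin genes stood first in 1 capillary-like cluster and the stress gene Hspa1a in another. A further cluster of 1128 cells, led by Rasa4 and Cysltr1 and with the venous marker Nr2f2 among its leading genes, reached no subtype score and is called the Rasa4/Nr2f2 cluster. The mural-like cluster (210 cells) was led by the pericyte genes Kcnj8, Vtn and Rgs5. It held 20, 34 and 112 cells in the control libraries and 9, 10 and 25 in the Dsp_het libraries, and Dsp_het library 1, with fewer than 10 cells, was left out of mural values unless stated. In the sum over all endothelial-like cells, fewer cells of a type and less RNA per cell cannot be told apart. Orders between classes are descriptions over 6 libraries (5 where mural cells enter), with no test.

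Notch3, the mural receptor, was all but limited to the mural-like cells among the vessel classes. It measured 334, 311 and 216 CPM in the control libraries and 277 and 303 CPM in the Dsp_het libraries. In arterial-like cells it lay between 0 and 4.44 CPM, in capillary-like cells between 0 and 1.88 CPM and in venous-like cells between 0 and 1.38 CPM, and the Rasa4/Nr2f2 cluster held no Notch3 UMI. The lowest mural library stood far above the highest endothelial one. With every cell thinned to 2000 UMIs, 38.2% of 173 mural-like cells held a Notch3 UMI (exact binomial 95% interval 30.9% to 45.8%), against 0.328% of 915 arterial-like cells and 1.69% of 1185 fibroblast-like cells. Without thinning the shares were 59.0%, 0.955% and 4.59%. Intervals of this kind cover counting error only.

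Notch1, the main receptor of endothelium, had its highest mean among the 5 vessel classes in arterial-like cells. There it measured 381, 301 and 261 CPM in control and 294, 303 and 375 CPM in Dsp_het. Capillary-like cells followed with 213 ± 24.9 CPM (mean ± SD, n = 6 libraries), then mural-like cells with 189 ± 49.3 CPM (n = 5), venous-like cells with 157 ± 22.9 CPM and the Rasa4/Nr2f2 cluster with 99.7 ± 10.2 CPM. Arterial-like cells exceeded each of these classes in every library and their range did not overlap with any of them. Capillary-like cells exceeded venous-like ones in 6 of 6 libraries, but the ranges overlapped. Endocardial-like cells, which line the chambers, held 287 ± 49.6 CPM of Notch1.

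Notch4, a receptor largely restricted to endothelium, did not separate arterial-like from capillary-like cells. The arterial values ran from 67.7 to 121 CPM with a median of 92.9, and the capillary values from 74.1 to 89.5 CPM with a median of 82.7. Both lay above every venous library, where Notch4 ran from 12.6 to 48.2 CPM, and above every library of the Rasa4/Nr2f2 cluster (19.2 to 48.3 CPM). Notch4 was thus high in one pair of endothelial classes and low in the other, with ranges apart. Of the receptors outside the 10, Notch2 was low in arterial-like (1.27 ± 1.61 CPM) and capillary-like cells (3.14 ± 1.60 CPM), 12.6 ± 6.67 CPM in venous-like cells, and 66.5, 72.0 and 78.5 CPM on average in epicardial-like, fibroblast-like and macrophage-like cells.

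Dll4, the ligand of arteries and of sprouting vessels, differed more between arterial-like and venous-like cells than the other ligands (12.2 times). Arterial-like cells held 208, 220.0 and 180.5 CPM of Dll4 in control and 188, 233 and 198 CPM in Dsp_het. Capillary-like cells held 152, 165 and 133 CPM against 136, 135 and 128 CPM, and venous-like cells 18.5, 18.9 and 20.6 CPM against 17.7, 15.2 and 9.67 CPM. No arterial library overlapped with a capillary one and no capillary library with a venous one. The Rasa4/Nr2f2 cluster, at 25.5 ± 5.40 CPM, was near the venous-like cells, above them in 6 of 6 libraries but with overlapping ranges. Thinned to 2000 UMIs, 31.4% of arterial-like, 23.5% of capillary-like and 1.94% of venous-like cells held a Dll4 UMI. In macrophage-like cells, used here for comparison, the share was 0.474% of 211 cells. Free RNA from other cells was not measured. Median depths before thinning were 3571, 3462, 6135.5 and 10695 UMIs in arterial-like, capillary-like, venous-like and macrophage-like cells. The venous interval (0.893% to 3.66%) overlapped with that of the macrophage-like cells (0.012% to 2.61%). Without thinning, the shares were 46.4%, 36.4%, 7.98% and 5.02%.

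Dll1 ran the other way. This ligand, known from somite formation and from arterial development, measured 77.5, 170.2 and 82.5 CPM in venous-like cells of the control libraries and 54.5, 68.5 and 81.5 CPM in those of Dsp_het. The arterial-like cells held 17.3 ± 2.93 CPM, the capillary-like cells 31.4 ± 3.43 CPM and the Rasa4/Nr2f2 cluster 48.6 ± 11.7 CPM. Venous-like cells exceeded arterial-like and capillary-like ones in all 6 libraries with no overlap of Dll1, 5.15 and 2.84 times higher on average, and capillary-like cells in turn exceeded arterial-like ones without overlap. The highest venous value, in control library 2, rested on 27 UMIs in 28 cells. Over the thinned cells, 11.7% of venous-like, 5.48% of capillary-like and 3.50% of arterial-like cells held a Dll1 UMI (29.6%, 10.5% and 5.83% without thinning), against 0.948% of macrophage-like cells.

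Among the 5 vessel classes, each summed as a whole, both Jagged ligands had their highest mean in arterial-like cells, and they differed elsewhere. Jag1 measured 105, 103 and 54.0 CPM in arterial-like cells of control and 108, 127 and 76.9 CPM in those of Dsp_het. Among these 5 classes Jag1 was lowest in capillary-like cells, at 21.9, 21.2 and 14.5 CPM and 27.4, 24.99 and 17.9 CPM, with venous-like cells at 46.4 ± 15.7 CPM. Both arterial-like and venous-like cells therefore lay above capillary-like cells without overlap, while the arterial and venous ranges of Jag1 overlapped although the arterial value was higher in each library. Jag2 was 172 ± 29.4 CPM in arterial-like, 97.8 ± 15.6 CPM in capillary-like and 56.6 ± 18.8 CPM in venous-like cells. Arterial-like cells were apart from the others, and the capillary and venous ranges of Jag2 overlapped. Endocardial-like cells held almost no Jag2, 4 UMIs in all and none in 4 of 6 libraries.

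Hey1, a transcriptional repressor of arterial endothelium, differed more between arterial-like and venous-like cells than any other member. Arterial-like cells held 505, 444 and 459 CPM in control and 502, 487 and 438 CPM in Dsp_het. Capillary-like cells held 83.3, 67.7 and 77.0 CPM against 107, 70.5 and 76.5 CPM. In venous-like cells Hey1 came to 0, 12.6 and 11.5 CPM against 2.53, 0 and 1.38 CPM, from 10 UMIs in all. Arterial-like cells stood 5.88 times above capillary-like ones, and neither this pair nor capillary and venous overlapped. The share of thinned cells with a Hey1 UMI was 55.5% (52.2% to 58.8%) in arterial-like, 12.7% (11.7% to 13.7%) in capillary-like and 0.648% (0.134% to 1.88%) in venous-like cells, against 0 of 211 macrophage-like cells, where the exact interval reaches 1.73%. Without thinning the shares were 69.5%, 17.8%, 1.89% and 2.74%, so the venous share was not above that of the deeper macrophage-like cells. The part of free RNA was not tested.

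Nrarp followed the same division without separating arteries from capillaries. Its libraries ran from 90.3 to 149.7 CPM (median 125) in arterial-like and from 86.5 to 143 CPM (median 98.3) in capillary-like cells. Venous-like cells held 20.2, 25.2 and 16.0 CPM of Nrarp in control and 17.7, 30.4 and 26.2 CPM in Dsp_het, and the Rasa4/Nr2f2 cluster 39.3 ± 7.32 CPM. Both low classes lay under every arterial and capillary library. Arterial-like cells exceeded venous-like ones 5.46 times on average.

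Hes1, a repressor that many pathways besides Notch induce, did not follow that order. It was higher in capillary-like cells (421 ± 90.4 CPM, 300.1 to 537) than in arterial-like cells (223 ± 40.3 CPM, 186 to 294) in 6 of 6 libraries, and these ranges did not overlap. Venous-like cells (271 ± 61.9 CPM) and the Rasa4/Nr2f2 cluster (241 ± 63.0 CPM) overlapped with the arterial-like cells. Mural-like cells held 501 ± 129 CPM of Hes1 (n = 5) and overlapped with the capillary-like cells. The order of these means turned with copies counted in, to 409 CPM in mural-like cells (6 libraries) and 419 CPM in capillary-like cells. Hes1 was also present outside the vessels, at 267 CPM in fibroblast-like cells, and in 32.8% of those cells after thinning (56.8% without), against 9.48% of macrophage-like cells (31.1% without).

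**Figure D1:**
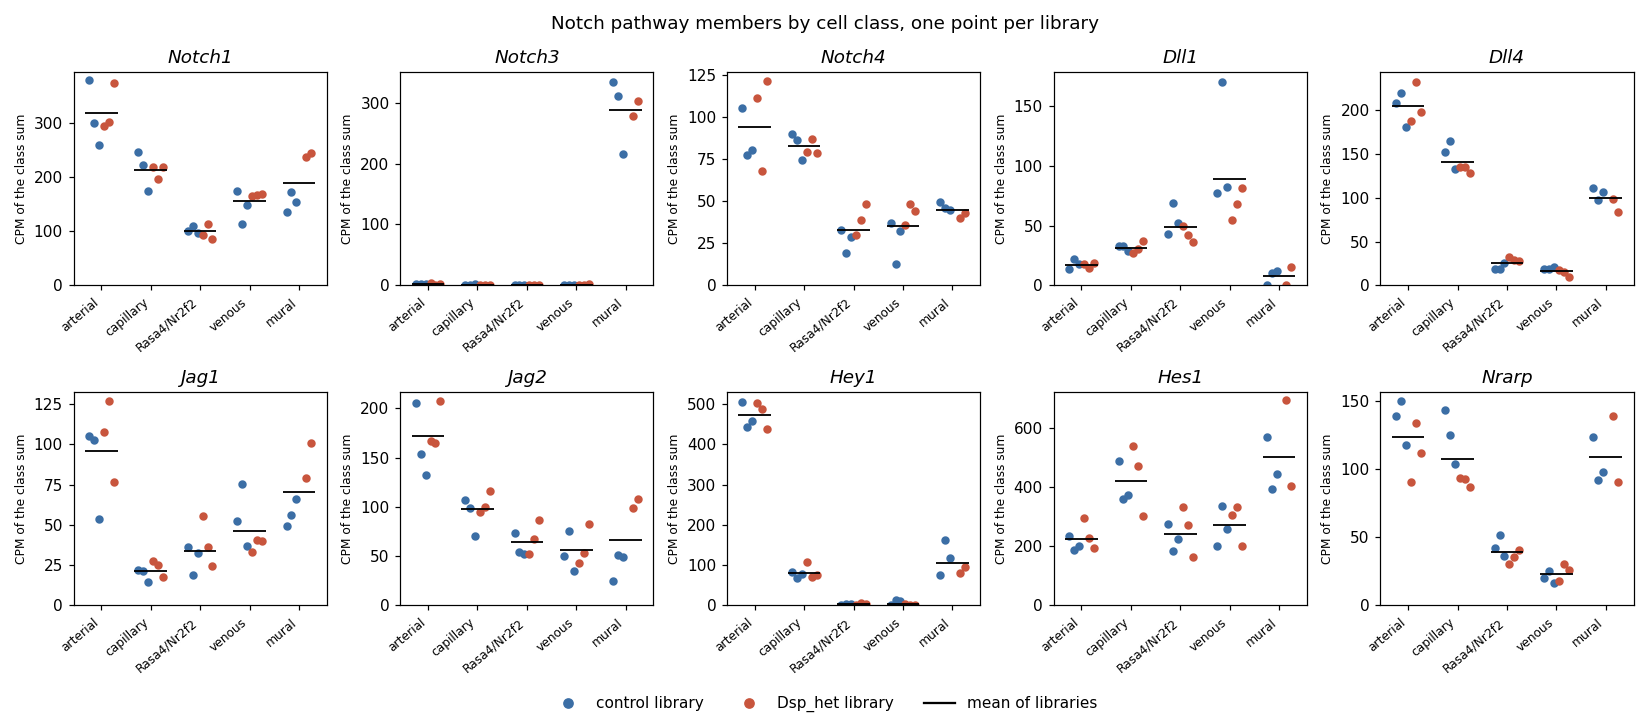
CPM of each of the 10 genes (y axis, linear from 0, own scale per panel) in the summed cells of 5 classes (x axis), with 1 point per library, control in blue and Dsp_het in red, and a bar for the mean of the libraries. Hey1 and Dll4 step down from arterial to venous cells, Dll1 steps up, and Notch3 is at 288 CPM on average in mural cells and near 0 elsewhere.

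The members also varied inside the endothelium beyond the arterial, capillary and venous names. Among the 4 capillary-like clusters, Hey1 was 185 ± 38.6 CPM in the one led by Rbp7 and Cxcl12, genes that were also on the arterial marker list, whose lowest library (143 CPM) lay above the highest of the other 3 clusters (97.0 CPM). The capillary-like cluster with Kdr, Itga6 and Shank3 among its leading genes held 63.8 ± 18.1 CPM of Hey1 but the highest capillary Dll4 (221 ± 61.4 CPM) and Jag2 (182 ± 16.9 CPM), and 350 ± 77.1 CPM of Notch1. These 3 means exceeded those of the arterial-like cells (205, 172 and 319 CPM), with overlapping ranges, so the arterial-over-capillary order of Dll4, Jag2 and Notch1 held for the capillary-like class as a whole and not for this cluster. Its Jag2 did not overlap with that of the other capillary-like clusters, whose highest library reached 114 CPM. This cluster was also the shallowest of the 4, with a median of 2678 UMIs per cell, and the part of depth was not tested.

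The remaining endothelial-like clusters gave other combinations. The angiogenic-like cluster, led by Apln and Kit, held Dll4 at 151 ± 7.87 CPM, within the capillary range, but Hey1 at only 15.2 ± 7.19 CPM, and the ranges of Hey1 in it (5.25 to 24.4 CPM) and in arterial-like cells were far apart. The interferon-like cluster, led by Isg15 and Ifit1, had Hey1 from 32.9 to 209 CPM and Dll4 from 114 to 166 CPM. Endocardial-like cells joined a high Notch1 to Dll4 of 15.9 ± 13.4 CPM and Nrarp of 11.9 ± 6.55 CPM, the latter from 16 UMIs. Their Hey1, 45.5 ± 18.3 CPM, lay above every venous library.

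**Figure D2:**
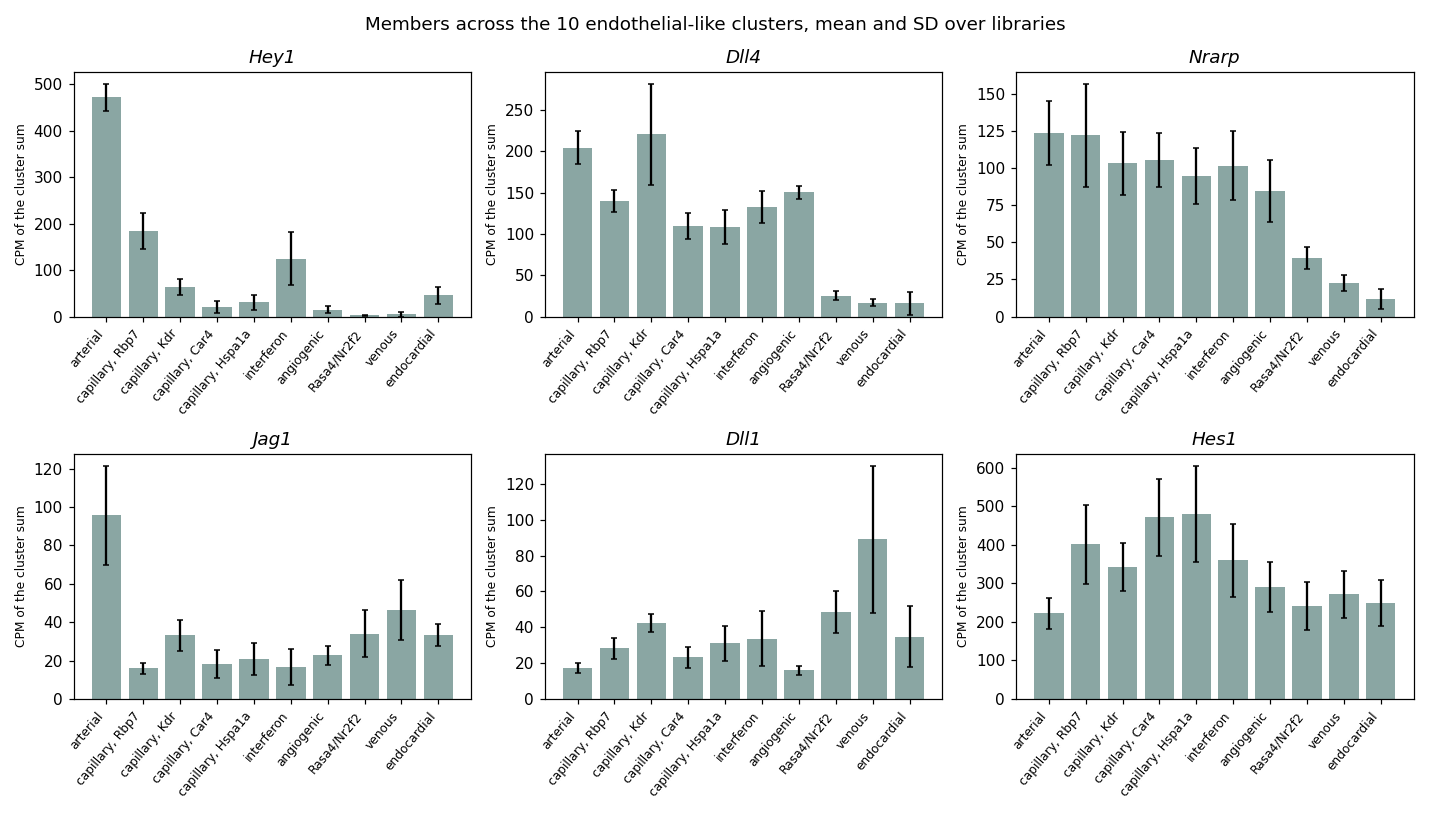
Mean CPM (y axis, linear from 0) of 6 members in the 10 endothelial-like clusters (x axis), with bars for the mean and whiskers for the SD over 6 libraries. Hey1 marks the arterial cluster and, at 185 CPM, the capillary cluster led by Rbp7, while Dll4 and Nrarp stay high in all capillary and angiogenic clusters and drop in the Rasa4/Nr2f2, venous and endocardial clusters.

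Across 23 sums of the arterial, capillary, venous and mural classes in single libraries, Dll4 and Nrarp varied together (Pearson r of 0.938 on log2(CPM + 1)), as did Dll4 and Hey1 (0.934). Dll1 went against Notch3 (-0.76). These sums share libraries and only 4 classes, so the correlations restate the class pattern. Of 9413 genes compared, those most like Dll4 were Myo10 (0.985), Cxcl12 (0.971) and Cdkn1c (0.970), and those most like Nrarp were Igfbp7 (0.952), Myo10 (0.946) and Aqp7 (0.941). Hey1 was closest to Alpl (0.940) and Rbp7 (0.934), Notch3 to Carmn (0.974), Sox5 (0.971) and Ednra (0.971), and Dll1 to Arl4d (0.957).

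In mural-like cells the levels of the endothelial members have to be read beside endothelial RNA. Over 5 libraries these cells held 99.4 ± 10.7 CPM of Dll4, 106 ± 36.3 CPM of Hey1, 109 ± 21.5 CPM of Nrarp, 70.4 ± 20.4 CPM of Jag1, 44.5 ± 3.65 CPM of Notch4 and 7.45 ± 7.03 CPM of Dll1. All 10 endothelial markers had a UMI in each of the 5 mural sums, and together they reached 17547 to 19754 CPM in the control libraries and 19615 to 23210 CPM in the Dsp_het libraries. UMIs of at least 2 of Pecam1, Cdh5, Emcn, Egfl7 and Tie1 were present in 127 of the 210 mural-like cells (60.5%). These 127 cells had a median of 7680 UMIs, against 2693 for the other 83, and GFP at 1052 CPM against 62.3 CPM, while the pericyte gene Rgs5 was 3963 CPM against 8507 CPM. The split was chosen after the data had been seen, its counts are pooled over libraries and the 2 sides differ in depth, so a shallow cell can fall on the low side through depth alone. Control library 3 held 112 of the 210 cells. The sides were set by endothelial markers, so genes that go with these markers are lower on the low side by construction. The directions below are thus a description and no test.

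Read by that split, Notch3 was 578 CPM (exact Poisson 95% interval 486 to 682) in the 83 cells with 0 or 1 endothelial marker and 201 CPM (179 to 226) in the others. Jag1 (133 against 62.8 CPM), Hes1 (698 against 403 CPM) and the mural target Heyl (312 against 76.6 CPM) were higher in the same 83 cells. Dll4 went the other way, with 12.5 CPM from 3 UMIs against 112 CPM (95.2 to 130.3), as did Jag2 (16.6 CPM from 4 UMIs against 73.1 CPM), Hey1 (41.6 against 128 CPM) and Dll1, with no UMI (up to 15.3 CPM) against 13.1 CPM (7.89 to 20.5), where the intervals overlapped. Notch1 (145 against 183 CPM) and Nrarp (91.4 against 97.2 CPM) had overlapping intervals. With those cells left out of each library, the mean level of Notch3 was 649 CPM and that of Dll4 11.3 CPM (n = 4 libraries, 1 of them Dsp_het). With copies counted in, 6 libraries had enough mural-like cells, with 39 cells in Dsp_het library 1, and 2 mural levels moved beyond the SD, Dll4 to 84.5 CPM and Notch4 to 40.7 CPM. The copies and the added library both differ there, and their parts cannot be told apart.

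**Figure D3:**
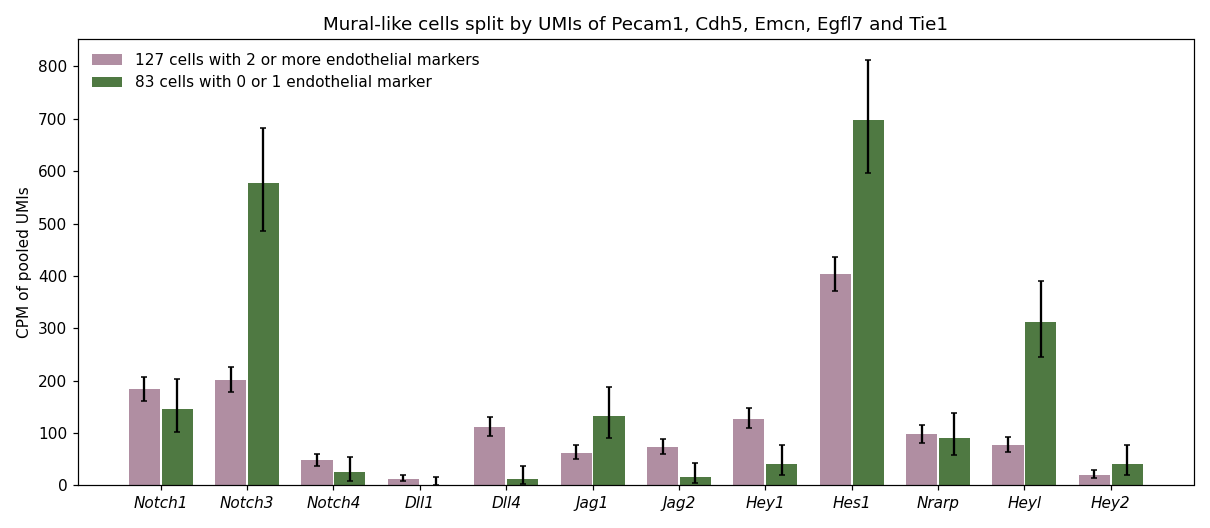
CPM of pooled UMIs (y axis, linear from 0) for the 10 members, Heyl and Hey2 in mural-like cells with UMIs of 2 or more endothelial markers (127 cells) and of 0 or 1 (83 cells), with exact Poisson 95% intervals that cover counting error only. Notch3, Jag1, Hes1 and Heyl are higher in the cells with few endothelial markers, and Dll4, Jag2 and Hey1 are lower.

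Among the other pathway genes, the glycosyltransferase Lfng, which changes how Notch receptors answer their ligands, ran opposite to Dll4. It was 6.28 ± 3.32 CPM in arterial-like, 19.6 ± 3.64 CPM in capillary-like, 40.2 ± 12.8 CPM in the Rasa4/Nr2f2 cluster and 83.5 ± 42.3 CPM in venous-like cells, and only the Rasa4/Nr2f2 and venous ranges overlapped among neighbours in this order. Mfng, its relative, was 55.2 ± 18.2, 70.6 ± 8.06 and 34.9 ± 14.3 CPM in arterial-like, capillary-like and venous-like cells. The targets Heyl and Hey2 were mural, at 132 ± 53.6 and 30.4 ± 16.2 CPM (n = 5), with at most 2.12 CPM of Heyl and 6.88 CPM of Hey2 in any library of the arterial-like, capillary-like or venous-like cells. Rbpj, the nuclear partner of the receptors, varied little over the vessel classes, from 38.4 ± 4.15 CPM in venous-like to 51.2 ± 20.2 CPM in mural-like cells.

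The genotype comparison asked whether the Dsp_het genotype went with a change in these genes within a class. No member passed in any class: 0 of 9 members tested in arterial-like cells, 0 of 9 in capillary-like, 0 of 7 in venous-like, 0 of 9 in all endothelial-like and 0 of 8 in mural-like cells (edgeR's quasi-likelihood test, Benjamini-Hochberg adjusted over all genes tested, threshold 0.05). Few genes of any kind passed: 0.0147% of 6810 genes in arterial-like, 0% of 10216 in capillary-like, 0.0163% of 6152 in venous-like, 0% of 11309 in all endothelial-like and 0% of 3680 in mural-like cells. DESeq2 called 0 members in each. At an unadjusted p under 0.05, members numbered 0 in arterial-like and venous-like cells, 1 in capillary-like, 2 in all endothelial-like and 2 in mural-like cells, against 4.16%, 3.8%, 3.64%, 4.38% and 7.15% of all genes in the same order.

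Nrarp had the lowest p of the members in endothelium. In capillary-like cells it measured 143, 125 and 104 CPM in control and 93.1, 92.7 and 86.5 CPM in Dsp_het, and in all endothelial-like cells 110.5, 103 and 89.1 CPM against 72.6, 79.4 and 69.2 CPM. All Dsp_het libraries lay under all control libraries in both. How many of all genes separate the groups in this way was not counted, here or for the genes below. Groups that do not overlap are therefore a description only. The log2 fold change was -0.44 (SE 0.12, unadjusted p = 0.00289, edgeR adjusted p = 0.999) in capillary-like and -0.45 (SE 0.11, unadjusted p = 0.00172, edgeR adjusted p = 0.702) in all endothelial-like cells. In arterial-like cells the groups overlapped, at 139, 149.7 and 118 CPM against 90.3, 133 and 112 CPM (log2 fold change -0.29, SE 0.18). Over 16 alternatives the value for all endothelial-like cells stayed between -0.52 and -0.40 with adjusted p from 0.0547 to 0.9999, and with copies counted in it was -0.46.

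The mix of cells also varied between libraries, and the groups overlapped in each of the shares given next. Venous-like cells, low in Nrarp and Dll4, were 5.01%, 2.37% and 2.66% of endothelial-like cells in control and 7.38%, 4.06% and 11.7% in Dsp_het, and the Rasa4/Nr2f2 cluster 10.9%, 11.1% and 8.44% against 10.9%, 17.7% and 17.1%. The part of this mix was not tested. The capillary-like class was itself uneven, since its haemoglobin-led cluster held from 14.1% to 41.9% of its cells per library and its Hspa1a-led cluster from 3.77% to 24.2%. Dll4 in all endothelial-like cells measured 125, 139 and 118 CPM in control and 112, 111 and 95.1 CPM in Dsp_het. These groups did not overlap (log2 fold change -0.27, SE 0.11, unadjusted p = 0.0365, edgeR adjusted p = 0.999), but the change was -0.17 (SE 0.12) in capillary-like and within 1 SE of 0 in arterial-like cells, where the groups overlapped.

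Other members gave smaller or less certain values. Jag1 had a log2 fold change of 0.31 (SE 0.22) in arterial-like, 0.34 (SE 0.19) in capillary-like and -0.43 (SE 0.30) in venous-like cells, all with overlapping groups. The venous value became 0.17 when the cells were clustered with the pathway genes included. The venous-like cluster of that clustering held 1283 cells, with Rasa4 and Nr2f2 among its leading genes, so the 2 values rest on different cells. In venous-like cells Dll1 was at -0.52 (SE 0.27) and Notch4 at 0.42 (SE 0.33). In arterial-like cells, 6 of the 9 members tested (Notch1, Notch4, Dll1, Dll4, Jag2 and Hey1) lay within 1 SE of 0, and the median log2 fold change of the members was 0.04, against 0.0011 for all genes.

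In mural-like cells the larger differences rested on few UMIs. Jag2 was 24.7, 51.1 and 48.8 CPM in control (2, 10 and 45 UMIs) and 99.1 and 108 CPM in Dsp_het (5 and 43 UMIs), with no overlap (log2 fold change 1.16, SE 0.36, unadjusted p = 0.00369, edgeR adjusted p = 0.485). Notch1 was 136, 174 and 154 CPM against 238 and 245 CPM, also without overlap (0.61, SE 0.26, unadjusted p = 0.0293, edgeR adjusted p = 0.681). With all 6 libraries, the 9 cells of Dsp_het library 1 included, these were 1.19 and 0.48, and with copies counted in, also over 6 libraries, 0.97 and 0.30. Jag1 was at 0.62 (SE 0.35) and Hey1 at -0.44 (SE 0.32) in the main fit of mural-like cells. With copies counted in, Jag1 was at 0.27 (SE 0.32) and Hey1 at -0.43 (SE 0.26). Of the 105 Jag2 UMIs in these 5 libraries, those in cells with 0 or 1 endothelial marker came to 0, 1 and 3 in control and 0 and 0 in Dsp_het. Over all 6 libraries those cells held 240623 UMIs of any gene and the cells with 2 or more markers 1449931, so most UMIs of any gene lay in the latter. In the mural sums, the summed endothelial markers were 23210 CPM in Dsp_het library 2 and 19615 CPM in Dsp_het library 3, the latter inside the control range, and their part in the difference was not tested.

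**Figure D4:**
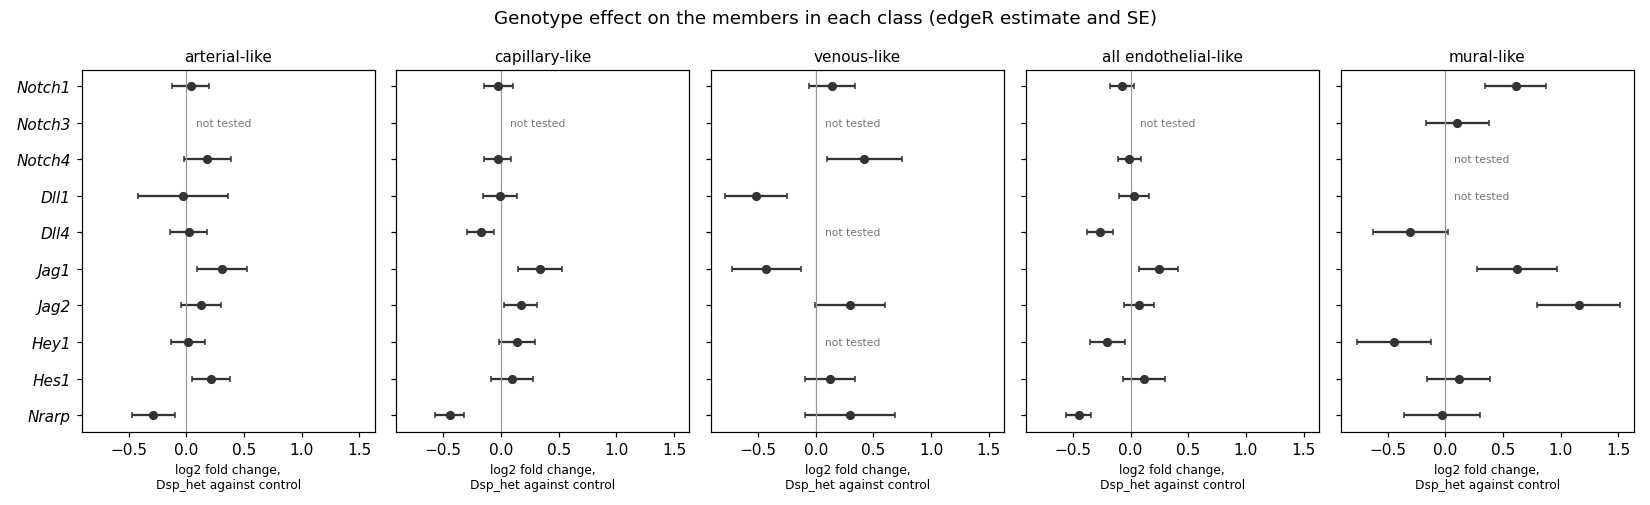
Log2 fold change of Dsp_het against control (x axis, points with SE as whiskers) for each member (y axis) in arterial-like, capillary-like, venous-like, all endothelial-like and mural-like cells, with members under the count filter marked as not tested. Nrarp lies at -0.44 in capillary-like and Jag2 at 1.16 in mural-like cells, and no point passed after adjustment.

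Whether the genotype effect differed between classes was tested as an interaction with the library as a block. No member passed in any of the 4 comparisons, where 0.0266% (arterial against venous), 0.063% (arterial against capillary), 0.0315% (capillary against venous) and 0.347% (mural against all endothelial) of genes did, and DESeq2 called 0 members. At an unadjusted p under 0.05 there were 1, 0, 3 and 2 members in that order, against 5.36%, 4.5%, 5.13% and 4.78% of all genes. Jag1 was higher by 0.66 (SE 0.32, edgeR adjusted p = 0.919) in the arterial than in the venous effect, and by 0.71 (SE 0.34, edgeR adjusted p = 0.960) in the capillary than in the venous one. The capillary minus venous difference was -0.77 (SE 0.37) for Nrarp and 2.01 (SE 0.98) for Hey1, which had 10 UMIs in venous-like cells. The mural minus endothelial difference was 0.79 (SE 0.39) for Jag2 and 0.62 (SE 0.28) for Notch1. With copies counted in, it was 0.64 (SE 0.30) for Jag2 and 0.26 (SE 0.22) for Notch1. The Jag2 difference turned negative when mural-like cells with endothelial markers were left out, where 1 Dsp_het library without a Jag2 UMI remained.

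Of the 45 other pathway genes, 22 were tested in arterial-like, 22 in venous-like, 32 in capillary-like, 33 in all endothelial-like and 13 in mural-like cells, and none passed in any of these. At an unadjusted p under 0.05 they numbered 4 in arterial-like cells (3 higher, 1 lower) and 0 in venous-like and capillary-like cells. There were 2 in all endothelial-like cells and 1 in mural-like cells, these 3 all higher. Of all genes, 4.16%, 3.8%, 3.64%, 4.38% and 7.15% had such a p in the order of the classes above. The median log2 fold change of the other pathway genes tested was 0.19, 0.11, 0.03, 0.09 and 0.13 in the same order. The median of all genes lay between -0.0025 and 0.0036, and the difference from it was not tested. The gene that was lower in arterial-like cells was Rbpj, with 63.9, 57.7 and 51.3 CPM in control and 45.9, 29.6 and 42.0 CPM in Dsp_het (log2 fold change -0.53, SE 0.25, edgeR adjusted p = 0.998), and the groups did not overlap. Lfng was at 0.57 (SE 0.22, edgeR adjusted p = 0.994) in all endothelial-like cells, with 22.7, 15.3 and 24.1 CPM against 22.0, 37.9 and 35.5 CPM, and the groups overlapped. It passed only without the filter on low counts (edgeR adjusted p = 0.0294), and over 16 alternatives the value lay between 0.41 and 0.78. It was at 0.12 (SE 0.20) in capillary-like and 0.22 (SE 0.34) in venous-like cells, within which the groups overlapped.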

How the data were processed

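The authors deposited 1 matrix of raw UMI counts (31055 genes, 18283 barcodes), whose barcode suffix gives the library. Per the submitters' processing notes, Seurat and GRCm38 were used; the aligner and counter: not given in the sources used here. Whether a library is 1 animal is not labelled, so p-values measure only the spread between these libraries.

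A barcode found in several libraries was kept in the library with at least 0.5 of its UMIs. Cells needed 500 UMIs, 200 genes and at most 20% mitochondrial UMIs. Cells were clustered with scanpy 1.11.5 and leidenalg 0.10.2 (2000 variable genes without the Notch genes, 30 components, 15 neighbours, resolution 1.0). Clusters were named from markers, by 3 markers among the 10 leading genes or else the highest marker score (at least 0.6 for an endothelial subtype), a scoring rule set after the clusters were seen. Scrublet called 32 cells (0.253%), too few to have worked, so doublets were not removed. Clusters of 824 cells stayed unnamed.

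Counts were summed per class and library with at least 10 cells, and tested with edgeR 4.0.16 (quasi-likelihood, TMM, filterByExpr with a minimum count of 10, R 4.3.3), with Benjamini-Hochberg adjustment over all genes and a threshold of 0.05. Only the libraries of the class entered a fit. DESeq2 1.42.0 was an alternative. The scripts were tested on simulated data. All 10 members were described whatever their values; of the 45 other pathway genes, Notch2, Hey2, Heyl, Lfng, Mfng and Rbpj were described by level, others being named where they passed (the 4 in the closing observations were chosen outside this rule, after their values were seen), and the 3 genes most like each member by Pearson correlation were listed. The members and lists were chosen with earlier results of these data known.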

Additional observations from a re-analysis of the deposited data

How the results depend on the processing

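Precision was limited by 3 libraries per group, by the 210 mural-like cells and, in venous-like cells, by 10 UMIs of Hey1. Of the member levels recomputed, 279 moved by less than the SD over libraries and 21 by more, 9 of them mural levels with mixed-marker cells left out. Of 50 shares of cells, 48 moved without thinning. None of 1272 results, each of 1 member in 1 fit, passed. The lowest adjusted p was 0.0547 (Nrarp, all endothelial-like cells, edgeR, no filter on low counts). Without that filter, Lfng in all endothelial-like cells passed (log2 fold change 0.56, edgeR adjusted p = 0.0294). Jag1 in venous-like cells changed sign to 0.17 when clustering used the pathway genes, where the venous-like cluster was a wider one of 1283 cells. The mural minus endothelial difference of Jag2 became -9.10 with mixed-marker cells left out. That was a fit of 3 libraries against 1 with no Jag2 UMI, so the value is no bound.

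The genes called were 1 in arterial-like, 1 in venous-like and 0 in capillary-like, all endothelial-like and mural-like cells, and 2, 6, 3 and 39 for arterial against venous, arterial against capillary, capillary against venous and mural against endothelial. Without the filter on low counts they were 19, 22, 64, 138 and 22 in the 5 classes and 10 for capillary against venous. With a replicate block they were 14, 13, 6, 11 and 11 in the 5 classes. Replicate numbers do not pair the libraries by the labels, and deviations of same-numbered libraries correlated at 0.127, -0.054 and -0.092 in all endothelial-like cells. With sex, read from Xist, as a term, chosen after seeing the data, they were 2, 5, 7, 4 and 2. Xist was above 100 CPM in 2 libraries, read as female, and the main fits had no term for sex. DESeq2 called 0 in venous-like, 7 in capillary-like and 12 in all endothelial-like cells, and 0 in each of the 4 comparisons between classes. Copies counted in gave 3 in venous-like, 6 in mural-like and 1 for arterial against venous. Leaving out the highest doublet scores gave 3, 3 and 1 in the same order and 7 for capillary against venous. Leaving out mixed-marker cells gave 0, 4, 1 and 7 in that order and 0 for mural against endothelial. Clustering with the pathway genes gave 0 in venous-like and 12 in mural-like cells and 0 for both contrasts with venous cells. Resolution 1.5 gave 2 in venous-like, 2 in capillary-like and 43 in mural-like cells, 1 for arterial against venous and 61 for mural against endothelial. Cells with at least 1000 UMIs gave 41 in mural-like cells and 61 for mural against endothelial. Leaving out 1 library at a time gave 0 to 10 in arterial-like, 0 to 19 in venous-like, 0 to 4 in capillary-like, 0 to 11 in all endothelial-like and 0 to 43 in mural-like cells, and 0 to 5, 5 to 12, 1 to 7 and 5 to 62 for the 4 comparisons. The cause of these moves was not tested.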

Other observations

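Some other genes of the pathway list varied strongly between classes. They were picked after their values had been seen, and no test was made. Dtx3, a member of the Deltex family of ubiquitin ligases, was at 237 CPM on average in mural-like cells (189 to 306 CPM, n = 5 libraries), against averages of 12.2 to 71.2 CPM in the other classes. Psen2, which encodes a catalytic subunit of the gamma-secretase that cuts Notch, was at 102 CPM in endocardial-like and 71.7 CPM in venous-like cells, against 22.0 CPM in arterial-like and 20.4 CPM in capillary-like cells. Dtx1, of the same family as Dtx3, was at 9.36 CPM in venous-like cells from 30 UMIs, and no UMI was seen in arterial-like or mural-like cells. Neurl3, a relative of the ubiquitin ligase Neuralized, was at 88.8 CPM in macrophage-like and 79.4 CPM in angiogenic-like cells, against 6.41 CPM in arterial-like cells.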
